A study of Mus musculus with 21 samples.

Results

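Forelimb buds (FBs) of Swiss mouse embryos were compared between E10.5 and E12.5 after both had spent 1 h in whole embryo culture. The comparison uses 6 of the 21 arrays of the series, 3 from E10.5 embryos cultured for 1 h and 3 from E12.5 embryos cultured for 1 h. The other 15 arrays are E10.5 FBs at 0, 3 and 6 h and E12.5 FBs at 0 and 3 h of culture, 3 arrays at each. No group carried a mutation or an added agent, and culture in rotating bottles before dissection of the FBs is what both groups shared. All 14860 genes with a feature of their own on the Affymetrix Mouse Exon 1.0 ST array entered the comparison. The values were log2 levels made by the authors with RMA, so a difference of 1 is a 2-fold difference, and each difference below is E12.5 minus E10.5 with its standard error (SE). A gene is called where its adjusted p, from limma over all 14860 genes, was under 0.05. The labels name the 3 arrays of a group biological replicates without saying how many embryos went into each, so the spread measured is that between samples. For each gene the SE and p-values use a spread pooled over all 21 arrays of the series, not over the 6 compared arrays alone.

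At E10.5 the mouse FB is a pouch of lateral plate mesenchyme covered by ectoderm. The apical ectodermal ridge along its rim and the *Shh*-secreting zone at its posterior margin drive outgrowth and pattern, while muscle precursors, nerves and vessels enter from the trunk. At E12.5 the digits are laid down as cartilage, joints and tendons are being marked out, and muscle cells have begun to build contractile fibers. An FB holds all these tissues together, so fewer cells of a type and less RNA per cell cannot be told apart in the values.

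The forelimb identity of the samples was read from *Tbx5*, the T-box factor that marks the forelimb. It read 9.86, 10.26 and 10.26 in the E10.5 arrays and 11.06, 10.90 and 11.05 in the E12.5 arrays. The limb mesenchyme factor *Prrx1* lay between 11.03 and 11.84 in the 6 arrays, and the hindlimb factor *Pitx1* between 6.48 and 7.35. Array medians over all 23332 features were 6.40, 6.29 and 6.29 at E10.5 and 6.60, 6.55 and 6.50 at E12.5. Over the tested genes the medians overlapped, at 7.51, 7.31 and 7.37 against 7.60, 7.63 and 7.47. The E10.5 replicate 1 stood apart, with a mean of 9.06 over 19 neuron markers against 6.61 and 6.72 in the other E10.5 arrays and 6.49 to 6.51 in the E12.5 arrays. The 10 placenta and decidua markers averaged 2.99 to 3.30 in all 6 arrays, and none of them was called.

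Of the 14860 genes, 2694 (18.1%) were called, with 2047 (13.8%) higher and 647 (4.35%) lower at E12.5. An absolute difference of at least 1 was reached by 561 of the higher and 121 of the lower genes. The 3 E10.5 and 3 E12.5 values did not overlap for 6163 genes (41.5%), and for 2656 of the called genes (98.6%). How the calls split between higher and lower depended on the scaling of the arrays. The share higher was 76.0% in the deposited values, 32.5% (1080 higher, 2248 lower) after a shift to a common median, 49.6% (1685 and 1710) after quantile normalization and 54.7% (1808 and 1495) after cyclic loess. The count of 647 lower genes was 358 without E12.5 replicate 1 and also without E12.5 replicate 3. Under all 4 scalings, 1065 genes stayed higher and 644 stayed lower. Single genes named below as higher or lower were called in the same direction under all 4 scalings, unless said otherwise. Counts over a list are those of the deposited values, and the count under all 4 scalings is given where it is smaller.

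Genes for the extracellular matrix of connective tissue had some of the largest differences. The small leucine-rich proteoglycans are secreted proteins that bind collagen fibrils and set their spacing, and 7 of 9 measured members (6 under all 4 scalings) were higher at E12.5 while 0 were lower. Their median difference was 2.59, beside 0.04 over all genes tested. *Ogn*, which encodes osteoglycin (mimecan, chr13:49608015-49624501, GRCm38.p6), read 5.17, 5.26 and 4.68 at E10.5 and 10.11, 10.21 and 10.27 at E12.5. *Kera*, which encodes keratocan, read 4.16, 5.79 and 4.50 at E10.5 and 9.90, 9.63 and 10.03 at E12.5. *Aspn*, which encodes asporin, went from 2.79, 2.96 and 2.65 to 7.82, 7.96 and 7.58. In all 3 genes every E12.5 array lay more than 3 log2 units above every E10.5 array. The differences were 5.16 ± 0.18 for *Ogn* (35.8-fold, adjusted p = 6.96e-12), 5.04 ± 0.46 for *Kera* (32.8-fold, adjusted p = 7.35e-07) and 4.99 ± 0.19 for *Aspn* (31.7-fold, adjusted p = 1.42e-11).

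Lumican and decorin are broadly expressed members of the family. *Lum* read 8.56, 8.02 and 7.98 at E10.5 and 11.29, 11.29 and 11.20 at E12.5, a difference of 3.07 ± 0.30 (adjusted p = 1.71e-06). *Dcn* read 10.43, 8.69 and 8.38 at E10.5, with replicate 1 well above the other arrays of its group, and 11.77, 11.68 and 11.80 at E12.5. Its difference was 2.59 ± 0.64 (adjusted p = 0.00834). *Bgn*, which encodes biglycan, was higher by 0.82 ± 0.16 (adjusted p = 0.00123), and the cartilage member *Epyc* by 0.53 ± 0.15 (adjusted p = 0.0226), a call that was not made under every scaling. *Prelp* (0.72 ± 0.41) and *Omd* (-0.12 ± 0.14) did not pass the test.

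**Figure D1:**
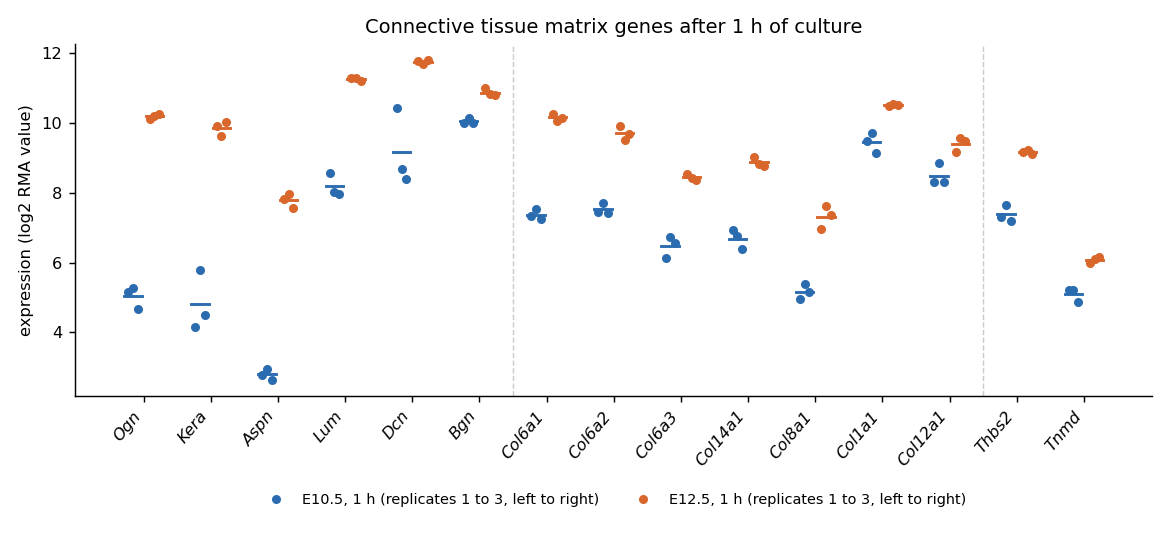
Log2 level (vertical axis) of matrix genes in each of the 3 E10.5 and 3 E12.5 arrays after 1 h of culture, a point per array and a bar at the group mean. The E12.5 points lie above the E10.5 points in every gene drawn, and *Dcn* shows E10.5 replicate 1 at 10.43, apart from 8.69 and 8.38.

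Among the collagen chains outside cartilage, 12 of 19 (11 under all 4 scalings) were higher and 1 was lower, or 2 under each of the other scalings, with a median difference of 0.74. The 3 chains of collagen VI, which forms beaded filaments around cells, moved together. *Col6a1* read 7.35, 7.52 and 7.24 at E10.5 and 10.25, 10.07 and 10.15 at E12.5 (2.79 ± 0.17, adjusted p = 9.84e-09). *Col6a2* differed by 2.18 ± 0.17 (adjusted p = 8.43e-08) and *Col6a3* by 1.96 ± 0.21 (adjusted p = 5.2e-06). The fibril-forming chains of collagens I, III and V differed less, by 1.07 ± 0.20 for *Col1a1*, 0.87 ± 0.15 for *Col3a1* and 0.98 ± 0.18 for *Col5a2* (adjusted p of at most 0.000901). The fibril-associated *Col14a1* was higher by 2.18 ± 0.19 and *Col12a1* by 0.92 ± 0.20 (adjusted p = 0.00393). *Col12a1* read 8.31, 8.86 and 8.30 at E10.5 and 9.18, 9.57 and 9.47 at E12.5, with no overlap. The lower chain was *Col18a1*, a basement membrane collagen, at 9.78, 9.75 and 9.71 against 8.88, 9.02 and 8.83 (-0.84 ± 0.19, adjusted p = 0.00431).

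Tendon and connective tissue genes were higher in 8 of 14 cases (7 under all 4 scalings) and lower in 0, or in 1 under each of the other scalings, with a median difference of 0.84. Apart from *Kera* and the collagens, these included *Thbs2*, a matrix thrombospondin (7.32, 7.64 and 7.20 against 9.17, 9.23 and 9.10, a difference of 1.78 ± 0.17), and *Tcf7l2*, a Wnt effector of muscle connective tissue (1.01 ± 0.15). *Tnmd*, which encodes the late tendon protein tenomodulin, was higher by 0.99 ± 0.18 (adjusted p = 0.000851). *Scx*, the early tendon transcription factor, overlapped between the stages, at 7.59, 8.46 and 8.23 against 8.35, 8.86 and 8.38 (0.44 ± 0.25, adjusted p = 0.261).

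Of the 9 joint interzone genes, 4 were higher and 0 lower. *Gdf5*, the growth factor that marks the stripe where a joint will form, read 5.25, 5.71 and 4.96 at E10.5 and 8.21, 8.78 and 8.53 at E12.5 (3.20 ± 0.21, 9.18-fold, adjusted p = 1.24e-08). The stages were separated by more than 2 log2 units. *Osr1* (1.64 ± 0.16), *Barx1* (1.32 ± 0.17) and *Erg* (1.19 ± 0.15), transcription factors found in or around forming joints, were the other members called.

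Cartilage genes were less uniform, with 9 of 25 higher (4 under all 4 scalings) and 1 lower and a median of 0.43. *Papss2*, which makes the sulfate donor for proteoglycans, read 6.18, 6.44 and 6.43 at E10.5 and 9.72, 10.05 and 9.51 at E12.5 (3.41 ± 0.40, adjusted p = 1.22e-05). *Cnmd*, which encodes chondromodulin, was higher by 2.18 ± 0.42 and *Matn4*, a matrilin of the cartilage matrix, by 1.68 ± 0.28. The defining cartilage pair did not pass the test, with 9.88, 9.76 and 9.67 against 9.80, 10.12 and 10.04 for *Sox9* (0.22 ± 0.15, adjusted p = 0.371) and 8.78, 9.0 and 8.78 against 8.65, 8.77 and 8.55 for *Col2a1* (-0.20 ± 0.16, adjusted p = 0.472). *Hapln1*, which encodes the link protein that ties hyaluronan to proteoglycans, went the other way, from 8.27, 8.12 and 8.35 to 6.69, 6.81 and 6.06 (-1.72 ± 0.18, adjusted p = 2.65e-06). The count of 9 fell to 5 without E10.5 replicate 1, to 4 without E12.5 replicate 2 and to 4 with the arrays shifted to a common median.

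**Figure D2:**
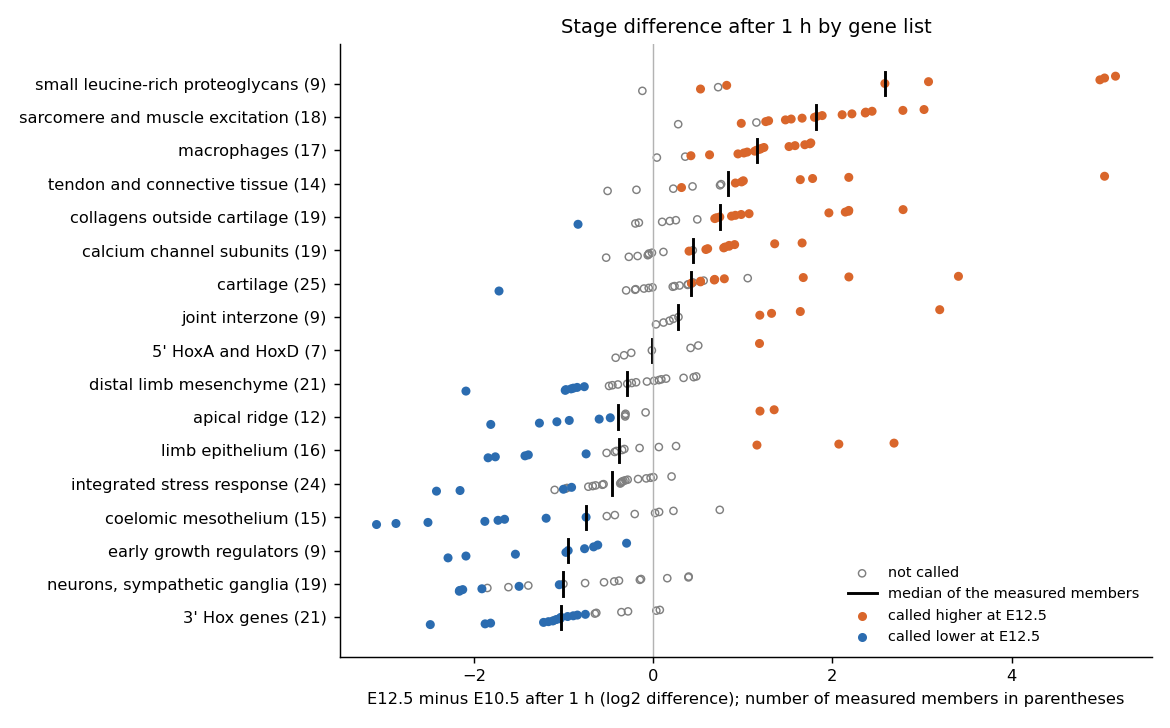
Differences between E12.5 and E10.5 after 1 h of culture (horizontal axis, log2), a point per measured gene and a row per gene list, with called genes filled in color and a bar at the median of the list. The small leucine-rich proteoglycans and the sarcomere list lie mostly to the right, and the early growth regulators, the 3′ *Hox* genes and the mesothelium list mostly to the left.

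In muscle, the precursor gene *Pax3* was lower and genes of differentiation were higher at E12.5. Precursors that migrate from the somites into the limb express *Pax3*, and once there they turn on *Myod1* and then *Myog*, which commit and differentiate them. *Pax3* read 9.48, 8.37 and 8.20 at E10.5 and 5.97, 6.03 and 6.04 at E12.5 (-2.67 ± 0.25, 6.35-fold, adjusted p = 1.07e-06). *Myod1* read 7.89, 7.63 and 7.36 at E10.5 and 10.48, 10.00 and 10.46 at E12.5 (2.68 ± 0.29, adjusted p = 4.7e-06). *Myog* went from 8.84, 8.15 and 7.61 to 10.58, 10.10 and 10.51 (2.20 ± 0.49, adjusted p = 0.00422). None of the 3 genes overlapped between the stages. Over the 13 myogenic regulators, 6 were higher (5 under all 4 scalings) and 3 lower, with *Msc* (2.16 ± 0.19), *Mef2c* (1.61 ± 0.15) and *Eya4* (0.75 ± 0.17) also higher and *Six4* lower (-0.72 ± 0.11). The third lower member, *Myf6*, fell by 1.74 ± 0.53 (adjusted p = 0.0296), and its call was lost without any one of 5 arrays (adjusted p of 0.0563 to 0.101) while it held without E12.5 replicate 1. *Myf5*, the earliest of the myogenic factors in the mouse, did not pass the test, with a difference of -0.11.

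The contractile apparatus and the machinery that excites it were higher almost throughout, in 16 of 18 genes (15 under all 4 scalings) with 0 lower and a median difference of 1.81. *Actn2*, which encodes the alpha-actinin of the Z disc, read 8.38, 7.77 and 7.51 at E10.5 and 11.02, 10.80 and 10.91 at E12.5 (3.02 ± 0.38, 8.13-fold, adjusted p = 2.07e-05). *Myl1*, a myosin light chain, read 9.42, 8.39 and 8.37 against 11.81, 11.19 and 11.54 (2.79 ± 0.46). *Tnnc1*, a calcium-binding troponin, read 8.69, 7.68 and 7.55 against 10.47, 10.41 and 10.37 (2.44 ± 0.51). In each of these genes E10.5 replicate 1 was the highest of its group and still below every E12.5 array. The calcium store protein gene *Casq2* (2.37 ± 0.41), the cardiac type troponin T gene *Tnnt2* (2.22 ± 0.28), the myomesin gene *Myom1* (2.11 ± 0.20), the fast light chain gene *Mylpf* (1.83 ± 0.31) and the actin gene *Acta1* (1.80 ± 0.34) followed. The 2 genes that did not pass were *Des*, for the intermediate filament desmin (1.15 ± 0.47, adjusted p = 0.107), and *Ckm*, for muscle creatine kinase (0.28 ± 0.23, adjusted p = 0.469).

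Outside this list, *Musk* was higher too. It encodes the receptor kinase that organizes the neuromuscular synapse on the muscle side, and it read 5.08, 4.88 and 4.96 at E10.5 and 8.34, 8.20 and 8.10 at E12.5 (3.24 ± 0.23, 9.44-fold, adjusted p = 2.89e-08). Within the list, the acetylcholine receptor subunit genes *Chrna1* (7.30, 6.91 and 7.10 against 9.53, 9.40 and 9.49) and *Chrng*, the fetal subunit (6.99, 6.40 and 6.49 against 8.75, 8.40 and 8.38), differed by 2.37 ± 0.29 and 1.89 ± 0.28. From the heart muscle list, *Sln*, which encodes the calcium pump regulator sarcolipin, was higher by 2.44 ± 0.29 (adjusted p = 1.26e-05).

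Myogenic basic helix-loop-helix factors such as MyoD bind E-boxes, and the form CAGCTG is one that they prefer. It was searched in whole RefSeq promoters (GRCm38.p6), which run from before each start site to past it, and it reads the same on both strands. It was found in 10 of the 16 sarcomere list genes that had such a promoter (62.5%) beside 4944 of 27025 genes with a promoter in all (18.3%), or 5355 of 32851 promoters (16.3%). The sequences of 3 muscle genes with large differences are shown with CAGCTG in capitals, 5′ to 3′ on the strand of the gene. *Chrna1* is on the minus strand at chr2:73580339-73580538, *Mylpf* on the plus strand at chr7:127211408-127211607 and *Tnnt2*, 1 of its 2 listed promoters, on the plus strand at chr1:135836134-135836333. A match is a description of the letters and not of a bound site.
Chrna1: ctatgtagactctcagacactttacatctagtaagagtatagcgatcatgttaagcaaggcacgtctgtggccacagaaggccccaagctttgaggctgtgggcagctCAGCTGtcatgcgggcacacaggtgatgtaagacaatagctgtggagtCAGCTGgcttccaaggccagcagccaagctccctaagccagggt
Mylpf: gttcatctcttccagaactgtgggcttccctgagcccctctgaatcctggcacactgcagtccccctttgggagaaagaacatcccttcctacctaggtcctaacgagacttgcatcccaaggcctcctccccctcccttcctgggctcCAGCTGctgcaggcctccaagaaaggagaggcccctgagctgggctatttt
Tnnt2: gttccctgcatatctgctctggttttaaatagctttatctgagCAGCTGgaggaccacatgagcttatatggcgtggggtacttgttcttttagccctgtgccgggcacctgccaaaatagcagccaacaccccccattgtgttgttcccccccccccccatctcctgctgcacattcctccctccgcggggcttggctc

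Voltage-gated calcium channel subunits were higher in 10 of 19 cases and lower in 0, or in 1 to 2 under the other scalings, with a median difference of 0.44. The largest differences were in the skeletal muscle channel, with 5.83, 5.49 and 5.31 against 7.30, 7.13 and 7.17 for its pore gene *Cacna1s* (1.66 ± 0.21, adjusted p = 1.92e-05) and 1.36 ± 0.18 for its gamma subunit gene *Cacng1*. The pore genes *Cacna1c* (0.85 ± 0.16), *Cacna1d* (0.80 ± 0.11) and *Cacna1g* (0.91 ± 0.18), which are used widely outside skeletal muscle, were also higher. The count was 6 without E10.5 replicate 2, without E10.5 replicate 3 and without E12.5 replicate 1, and 7 members were called under all 4 scalings.

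Macrophage markers were higher in 15 of 17 cases, with a median difference of 1.15, and 13 of them under all 4 scalings. *Adgre1*, which encodes the surface protein F4/80, read 5.38, 5.63 and 5.38 at E10.5 and 7.54, 7.28 and 6.85 at E12.5 (1.76 ± 0.18, adjusted p = 2.94e-06). *Mrc1*, which encodes the mannose receptor CD206, read 5.79, 6.41 and 6.14 against 7.93, 7.88 and 7.78 (1.75 ± 0.21). The signaling adapters *Fcer1g* (1.69 ± 0.19) and *Tyrobp* (1.52 ± 0.28), the protease gene *Ctss* (1.58 ± 0.18), the chemokine receptor gene *Cx3cr1* (1.19 ± 0.21) and the complement gene *C1qa* (1.15 ± 0.26) were higher too. The mean of the list was 5.98 to 6.12 at E10.5 and 6.96 to 7.32 at E12.5, so its arrays did not overlap. *Cpa3*, a protease gene of mast cells and their precursors, was among the largest differences of all, at 3.70, 3.63 and 3.55 against 7.38, 7.53 and 7.10 (3.71 ± 0.13, 13.1-fold, adjusted p = 6.96e-12).

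Endothelial markers moved little as a list, with 5 of 19 called (26.3%, beside 18.1% over all genes), all higher, and a median of 0.24. Under all 4 scalings 2 were called. Those 2 were markers of lymphatic endothelium. *Lyve1*, a hyaluronan receptor gene also used by macrophages, read 5.53, 6.20 and 6.08 at E10.5 and 7.57, 7.52 and 8.13 at E12.5 (1.80 ± 0.31, adjusted p = 0.000501). *Prox1*, the transcription factor that sets lymphatic fate, read 7.41, 5.67 and 5.73 against 7.95, 8.03 and 7.90 (1.69 ± 0.37, adjusted p = 0.0039), with E10.5 replicate 1 again high. The list's count fell to 2 without E10.5 replicate 1 and to 3 without E10.5 replicate 3 or any one E12.5 array.

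Genes that keep early embryonic cells growing were lower at E12.5, in 9 of 9 cases under all 4 scalings and with a median difference of -0.95. *Lin28a*, which encodes the RNA-binding protein that blocks maturation of let-7 microRNAs, read 8.36, 7.87 and 7.91 at E10.5 and 5.92, 5.49 and 5.86 at E12.5 (-2.29 ± 0.21, 4.89-fold, adjusted p = 7.35e-07). *Sall4*, a zinc finger factor of early limb outgrowth, read 8.56, 8.01 and 8.95 against 6.38, 6.43 and 6.42 (-2.09 ± 0.29). *Arid3b* (-1.54 ± 0.20), *Arid3a* (-0.95 ± 0.16) and *Mycn* (-0.97 ± 0.15), which act on transcription, and *Dnmt3b*, a de novo DNA methyltransferase gene (-0.67 ± 0.13), were lower as well. *Hmga2*, which encodes a chromatin protein and is a let-7 target, was at 12.35, 12.57 and 12.47 against 11.76, 11.72 and 11.61 (-0.77 ± 0.10, adjusted p = 5.51e-05). *Igf2bp1*, for an RNA-binding protein that let-7 also targets, differed by -0.62 ± 0.10. The ninth member, *Igf2bp3*, differed by -0.30 ± 0.10 (adjusted p = 0.0463), and the count was 8 with any 1 of the 6 arrays left out.

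*Igdcc3*, which encodes a cell surface protein of the immunoglobulin family (chr9:65141154-65187031, GRCm38.p6), had one of the largest falls. It read 10.38, 10.34 and 10.502 at E10.5 and 6.68, 6.45 and 6.30 at E12.5 (-3.93 ± 0.18, 15.2-fold, adjusted p = 2.27e-10). A larger fall in mean, with a wider error, was in AY036118, a gene symbol to which no function is given here. It read 11.89, 11.72 and 12.01 at E10.5 and 6.99, 6.24 and 6.29 at E12.5 (-5.37 ± 1.32, 41.3-fold, adjusted p = 0.00827). The 3 fresh E10.5 arrays had a mean of 9.82 with an SD of 3.33, and those after 3 h a mean of 8.33 with an SD of 2.77. The stage difference of AY036118 did not pass the test at 0 h (-2.80, adjusted p = 0.133) or at 3 h (-0.80, adjusted p = 0.689). *Plch1*, for a phospholipase C, differed by -2.85 (adjusted p = 4.7e-06) and *Mc2r*, for the receptor of adrenocorticotropic hormone, by -2.29 (adjusted p = 3.28e-06). In the other direction, *Nfix*, a nuclear factor I gene that works in the shift from embryonic to fetal programs in muscle, read 6.33, 6.97 and 6.37 at E10.5 and 10.65, 10.36 and 10.64 at E12.5 (3.99 ± 0.38, 15.9-fold, adjusted p = 1.28e-06). *Rtl3*, a gene derived from a retrotransposon, read 5.46, 5.73 and 5.44 against 9.88, 9.62 and 9.62 (4.16 ± 0.17, 17.9-fold, adjusted p = 3.52e-11). The stages were at least 3 log2 units apart in *Igdcc3*, AY036118, *Nfix* and *Rtl3*. *Egfl6*, for a secreted matrix protein (3.37 ± 0.21), *Slc14a1*, for a urea transporter (3.10 ± 0.27), *Chrm3*, for a muscarinic receptor (3.09 ± 0.28), and *Phex*, for a peptidase of bone-forming cells (2.49 ± 0.20), were other large rises.

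*Hox* genes give cells their position along the body axis, and in the limb those at the 5′ end of the HoxA and HoxD clusters set the distal segments. None of the 7 measured 5′ genes was called under all 4 scalings, and after a shift to a common median 1 was lower and 0 were higher. *Hoxd13*, the most distal in action, was the only one called in the deposited values, at 8.84, 8.72 and 10.34 against 9.80, 11.21 and 10.43, and its groups overlapped. Its difference of 1.18 ± 0.38 (adjusted p = 0.0365) was not past the threshold after a shift to a common median (0.96, adjusted p = 0.0709) or without E10.5 replicate 1, E10.5 replicate 2, E12.5 replicate 2 or E12.5 replicate 3 (adjusted p of 0.0769 to 0.183). Of the 21 genes at the 3′ end and middle of the clusters, 14 were lower and 0 higher, with a median of -1.03. *Hoxc8* read 11.77, 10.55 and 10.34 at E10.5 and 9.67, 8.93 and 8.61 at E12.5 (-1.81 ± 0.35, adjusted p = 0.00124). *Hoxa2* (-1.22 ± 0.22), *Hoxa7* (-1.04 ± 0.17) and *Hoxb2* (-1.04 ± 0.24) did not overlap between the stages either.

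*Hoxb9* read 11.90, 8.87 and 8.44 against 7.48, 7.43 and 6.83 (-2.49 ± 0.58, adjusted p = 0.00566). Its E10.5 replicate 1, the array with the high neuron markers, stood 3 log2 units above the other E10.5 arrays, and without that array the difference was -1.41 (adjusted p = 0.00271). Without it 8 of the 21 genes were lower, and without E12.5 replicate 3 the count was 9. The part of neural or trunk tissue in these differences was not tested.

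*Shh* was lower at E12.5 and the apical ridge list had members in both directions. *Shh*, the posterior organizer's ligand (chr5:28456840-28467101, GRCm38.p6), read 8.52, 6.58 and 8.02 at E10.5 and 5.03, 4.96 and 4.90 at E12.5 (-2.74 ± 0.32, 6.69-fold, adjusted p = 1.16e-05). In the apical ridge list, 6 of 12 genes were lower and 2 higher. *Fgf8*, the ligand made throughout the ridge, read 7.82, 8.12 and 7.87 against 6.95, 6.99 and 7.06 (-0.94 ± 0.19, adjusted p = 0.0024), and *Fgf4*, made in its posterior part, 8.49, 8.40 and 8.34 against 7.77, 7.77 and 7.88 (-0.60 ± 0.16, adjusted p = 0.0113). The ridge transcription factor genes *Sp8* (8.12, 7.91 and 8.02 against 6.38, 6.14 and 6.08, a difference of -1.81 ± 0.23) and *Sp6* (-1.27 ± 0.28) were lower without overlap. *Rspo2*, which encodes a Wnt enhancer of the ridge, differed by -1.07 ± 0.17. The 2 higher members were *Dlx5* (1.35 ± 0.12), a homeobox gene also used by early cartilage, and *Fgf9* (1.19 ± 0.18).

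On the receiving side, *Dusp6*, the phosphatase gene that Fgf signaling induces in distal mesenchyme, was lower (11.42, 11.41 and 11.86 against 10.78, 10.62 and 10.75, a difference of -0.85 ± 0.15). The distal mesenchyme list had 7 of 21 genes lower and 0 higher, and 9 to 11 lower under the other scalings. In the Hedgehog list 2 of 11 genes were higher and 2 lower, with a median of -0.06. The Hedgehog co-receptor genes *Cdon* (0.79 ± 0.11) and *Boc* (0.69 ± 0.11) were higher. *Fgf10*, the mesenchymal signal to the ridge, overlapped between the stages (0.06 ± 0.22, adjusted p = 0.895), and so did the Bmp antagonist gene *Grem1* (-0.20 ± 0.27, adjusted p = 0.688). Among proximal limb, girdle and flank genes 5 of 13 were lower and 2 higher, and 2 were lower without any one array other than E10.5 replicate 3. *Meis1*, a homeobox gene of the proximal limb (-0.91 ± 0.15), and *Alx1* (-1.48 ± 0.30) were lower, and *Pax9* was higher (7.0, 5.76 and 5.81 against 8.58, 7.25 and 7.97, a difference of 1.74 ± 0.37).

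Of the 16 limb epithelium genes, 3 were higher and 5 lower. *Krt14* and *Krt15*, keratins of the basal layer of a stratifying epidermis, were higher, and *Krt18*, a keratin of simple epithelia, was lower. *Krt15* read 6.45, 6.38 and 6.24 at E10.5 and 9.14, 9.13 and 8.86 at E12.5 (2.69 ± 0.16, adjusted p = 4.52e-09). *Krt14* read 7.0, 7.05 and 7.33 against 9.48, 8.99 and 9.12 (2.07 ± 0.25, adjusted p = 1.6e-05). *Krt18* read 9.28, 9.20 and 9.26 against 7.50, 7.75 and 6.96 (-1.84 ± 0.29, adjusted p = 0.000216). The tight junction genes *Cldn6* (-1.43 ± 0.23) and *Cldn7* (-1.76 ± 0.21) and the ectodermal transcription factor gene *Tfap2c* (-1.39 ± 0.32) were lower, and *Upk1a*, a uroplakin gene of epithelial membranes, fell from 8.71, 8.13 and 8.33 to 6.29, 5.94 and 5.80 (-2.38 ± 0.35). The general epithelial markers *Cdh1* (-0.52) and *Epcam* (-0.41) did not pass the test.

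Markers of the coelomic mesothelium, the lining of the body cavity next to the limb, were lower in 8 of 15 cases and higher in 0, with a median of -0.75. *Gata5* read 8.86, 8.40 and 7.90 at E10.5 and 5.5, 5.34 and 5.04 at E12.5 (-3.09 ± 0.25, 8.5-fold, adjusted p = 2.49e-07). *Upk3b*, a uroplakin gene of mesothelium, read 9.26, 9.29 and 8.85 against 5.91, 6.46 and 6.42 (-2.87 ± 0.36). *Wt1* read 8.58, 9.06 and 8.89 against 7.22, 7.18 and 6.94 (-1.73 ± 0.26). *Lrrn4* (-2.51 ± 0.36), *Gata6* (-1.88 ± 0.21), *Gata4* (-1.66 ± 0.24) and *Tcf21* (-1.2 ± 0.25) were lower in the same way. The mean of the list was 8.02, 7.93 and 7.74 in the E10.5 arrays and 6.87, 6.89 and 6.78 in the E12.5 arrays after 1 h. In freshly dissected FBs it was 6.60 to 7.04 at E10.5 and 6.62 to 6.73 at E12.5, and after 3 h 7.97 to 8.47 and 6.99 to 7.33, so the cultured E10.5 arrays all lay above the fresh ones. The list includes *Aldh1a2*. The part of adhering body wall in these values was not tested.

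Neuron and sympathetic ganglion markers were lower in 6 of 19 cases. *Th* and *Dbh*, for enzymes of noradrenaline synthesis, read 9.03, 7.17 and 7.07 against 5.58, 5.48 and 5.73 (-2.16 ± 0.34) and 8.65, 7.31 and 7.28 against 5.80, 5.51 and 5.54 (-2.13 ± 0.42). The neurofilament gene *Nefl* read 12.11, 8.66 and 9.0 against 7.79, 7.79 and 7.70 (-2.16 ± 0.56, adjusted p = 0.0115). *Chrna3*, a nicotinic receptor subunit gene of autonomic ganglia, read 10.38, 6.94 and 6.84 against 4.77, 4.64 and 4.78 (-3.32 ± 0.61, adjusted p = 0.00086). E10.5 replicate 1 was far above the rest in all 4 genes, and the remaining E10.5 arrays were still above every E12.5 array. Without replicate 1 the difference of *Nefl* was -1.07 and that of *Chrna3* was -2.16, and both were still called. Without replicate 1, 6 of the 19 markers were lower, and without E10.5 replicate 2 the count was 11.

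Of the 8 neural crest and Schwann cell markers 2 were higher and 0 lower, a called share of 25% beside 18.1% over all genes. These were *Erbb3* (8.80, 8.73 and 8.59 against 9.64, 9.82 and 9.71, a difference of 1.02 ± 0.18), the receptor through which axons keep Schwann cells alive, and *Gfra3* (1.0 ± 0.17). The mean of the list was 8.69 in E10.5 replicate 1, 7.52 and 7.30 in the other E10.5 arrays and 8.31 to 8.50 at E12.5, so the stages overlapped. Without replicate 1 the count was 6 of 8.

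**Figure D3:**
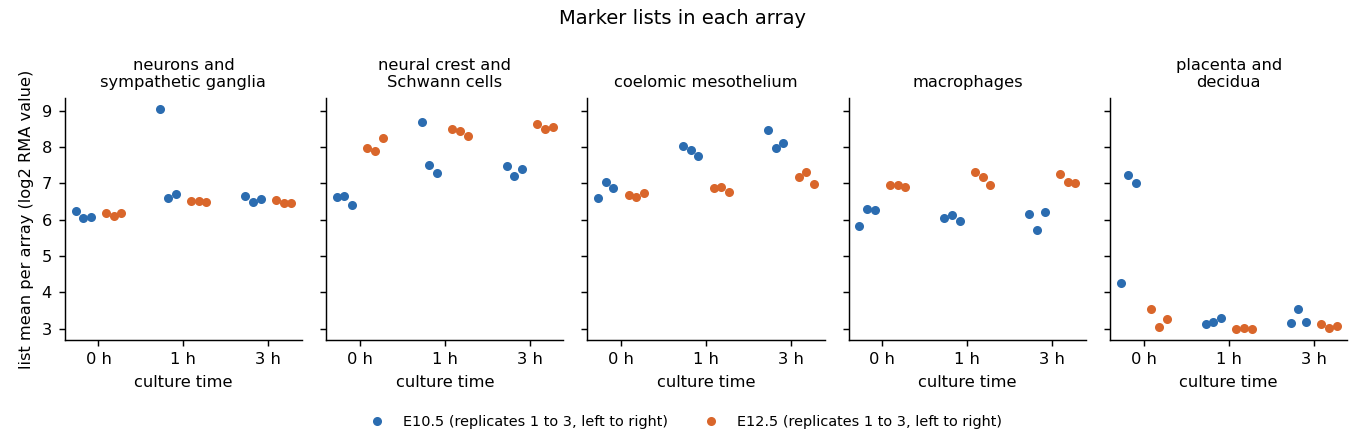
Mean log2 level of 5 cell type marker lists (vertical axis) in each E10.5 and E12.5 array at 0, 1 and 3 h of culture (horizontal axis), a point per array. At 1 h the neuron list stands at 9.06 in E10.5 replicate 1 and at 6.49 to 6.72 in the other arrays, and the macrophage and mesothelium lists separate the stages in opposite directions.

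Among signaling ligands and receptors, 6 of 23 Fgf genes were higher (5 under all 4 scalings) and 3 lower. *Fgf7*, a mesenchymal ligand for epithelial receptors, read 4.56, 4.59 and 4.45 at E10.5 and 8.01, 7.54 and 7.56 at E12.5 (3.17 ± 0.23, adjusted p = 6.59e-08). *Fgf18*, a ligand of forming skeleton, was higher by 1.88 ± 0.29, and *Fgfr4*, a receptor found in limb muscle precursors, read 6.76, 6.75 and 6.49 against 8.57, 8.38 and 8.50 (1.82 ± 0.17). *Fgf5* was lower (-1.09 ± 0.23). *Fgf11* has no feature of its own and was not analysed here.

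For the Wnt pathway, 5 of 19 antagonists, enhancers and targets were higher and 5 lower, or 6 to 7 lower under the other scalings. The secreted antagonists diverged, since *Dkk2* (8.19, 8.31 and 8.04 against 10.18, 10.23 and 10.14, a difference of 2.0 ± 0.16), *Wif1* (1.51 ± 0.17) and *Sfrp2* (0.87 ± 0.14) were higher while *Sfrp1* was lower (12.15, 12.14 and 11.74 against 11.14, 10.57 and 10.77, a difference of -1.18 ± 0.24). *Rspo4*, which encodes a Wnt enhancer, fell from 7.0, 8.01 and 7.91 to 5.28, 4.98 and 5.02 (-2.55 ± 0.40, adjusted p = 0.000205). The R-spondin receptor gene *Lgr5* was higher by 0.94 ± 0.23.

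In the Bmp pathway, 5 of 26 genes were higher (4 under all 4 scalings) and 3 lower, a called share of 30.8% beside 18.1% over all genes. The balance turned with the scaling, to 4 higher and 7 lower after the common median and 5 and 6 after quantile normalization. Members higher under all 4 were *Gdf5*, the antagonist gene *Fst* (8.17, 7.55 and 7.51 against 9.78, 9.76 and 9.87, a difference of 2.06 ± 0.39), *Bmper* (1.2 ± 0.16) and *Bmp5* (0.79 ± 0.13). In the retinoic acid pathway 5 of 15 genes were higher (3 under all 4 scalings) and 0 lower, while 3 were higher and 4 lower after the common median. *Aldh1a3*, for an enzyme that makes retinoic acid, read 5.53, 5.81 and 5.73 against 7.45, 7.93 and 7.84 (2.05 ± 0.20), and the receptor gene *Rxrg* read 7.93, 7.43 and 7.44 against 9.62, 9.65 and 9.58 (2.02 ± 0.21). Of the 16 T-box genes 3 were higher (2 under all 4 scalings) and 1 lower, a called share of 25% beside 18.1% over all genes. After the common median 2 were higher and 4 lower, and after cyclic loess 3 and 3. *Tbx1* read 7.77, 7.49 and 7.40 at E10.5 and 8.41, 8.31 and 8.45 at E12.5 without overlap (0.84 ± 0.16, adjusted p = 0.00143), and *Tbx5* was higher by 0.88 ± 0.13 (adjusted p = 0.000102).

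Single stress genes differed between the stages at this time point, while the stress lists were called in 13% to 25% of their members, beside 18.1% of all genes. The integrated stress response slows translation and, through the factor ATF4, turns on genes for amino acid supply and redox balance. Of its 24 measured genes 4 were lower at E12.5 and 0 higher, with a median of -0.46. Its called share was 16.7%. The count was 6 to 7 under the other scalings and 2 without E10.5 replicate 3 or without E12.5 replicate 2. *Sesn2*, which encodes a sensor that restrains growth signaling, read 10.38, 9.39 and 9.85 at E10.5 and 7.76, 7.55 and 7.83 at E12.5 (-2.16 ± 0.39, 4.46-fold, adjusted p = 0.000829). *Chac1*, which encodes an enzyme that breaks down glutathione, read 11.39, 10.40 and 10.81 against 8.84, 7.23 and 9.27 (-2.42 ± 0.60, adjusted p = 0.00847), and its call was lost without E12.5 replicate 2 (-1.81, adjusted p = 0.0553). Both genes had no overlap between the stages. The other called members were the folate enzyme gene *Mthfd2* (-1.0 ± 0.34, adjusted p = 0.0482) and the amino acid transporter gene *Slc7a1* (-0.91 ± 0.24, adjusted p = 0.013). *Mthfd2* was not past the threshold without any one array other than E10.5 replicate 2 (adjusted p of 0.091 to 0.144), and *Slc7a1* was not without E10.5 replicate 3 (adjusted p = 0.0504).

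At the neighboring times the stage difference of *Chac1* and *Sesn2* did not pass the test. *Chac1* lay at 7.15 to 7.73 at E10.5 and 7.04 to 7.21 at E12.5 at 0 h, and at 8.69 to 11.01 and 8.82 to 11.33 at 3 h. *Sesn2* lay at 7.75 to 7.85 and 6.90 to 7.29 at 0 h, and at 8.74 to 10.25 and 8.49 to 10.32 at 3 h. The stage difference of *Chac1* was -0.35 at 0 h and 0.39 at 3 h (adjusted p = 0.717 and 0.67), and that of *Sesn2* -0.72 and -0.14 (adjusted p = 0.199 and 0.828). The change in that difference was itself not past the threshold, for *Chac1* (1 h minus 3 h -2.81 ± 0.85, adjusted p = 0.123) or for *Sesn2* (-2.02 ± 0.56, adjusted p = 0.0963). *Atf3*, an ATF family gene induced by stress, read 9.58, 8.43 and 9.08 against 7.78, 7.52 and 7.75 at 1 h (-1.34 ± 0.35, adjusted p = 0.0115), a call lost without E10.5 replicate 1 (-1.07, adjusted p = 0.0609). *Hspa1a*, for an inducible heat shock protein, read 11.90, 12.33 and 12.30 against 10.21, 11.63 and 10.51 (-1.39 ± 0.43, adjusted p = 0.0303) and lost its call in 4 of the 6 fits that left out an array, all but those without E10.5 replicate 1 and E12.5 replicate 2 (adjusted p of 0.0881 to 0.15).

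ATF4 and its partners bind an element whose core can be written TGATGNAA. Searched on both strands of the same whole promoters, it was present in 8 of the 21 integrated stress response genes with a promoter (38.1%) beside 1219 of 27025 genes with a promoter in all (4.51%), or 1304 of 32851 promoters (3.97%). The stretches before the start sites of *Chac1* (plus strand, chr2:119351042-119351241) and *Atf3* (minus strand, chr1:191183334-191183533) are shown with the match in capitals, which in both is on the strand opposite to the gene. *Atf3* belongs to the immediate early list and is not among the 21 genes counted. No statement about binding of the factor follows from these letters.
Chac1: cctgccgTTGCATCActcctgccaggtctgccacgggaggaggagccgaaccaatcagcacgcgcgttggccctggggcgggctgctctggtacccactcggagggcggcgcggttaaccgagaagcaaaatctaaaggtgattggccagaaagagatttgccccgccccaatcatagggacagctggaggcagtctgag
Atf3: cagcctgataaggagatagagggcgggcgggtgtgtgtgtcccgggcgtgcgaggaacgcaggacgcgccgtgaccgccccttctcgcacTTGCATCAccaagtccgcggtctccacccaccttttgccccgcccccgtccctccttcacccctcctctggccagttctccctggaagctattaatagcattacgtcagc

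Other stress lists moved in few genes. Of 20 immediate early genes 4 were lower, or 6 under each of the other scalings and 2 without E12.5 replicate 1, and *Klf4* was higher (0.75 ± 0.17). *Cryab*, for a small heat shock protein abundant in muscle, read 8.0, 7.48 and 7.0 at E10.5 and 10.31, 10.07 and 10.14 at E12.5 (2.68 ± 0.65, adjusted p = 0.00752). Hypoxia and glycolysis genes were called in 3 of 23 cases (13%), 1 higher and 2 lower, or 4 to 7 lower under the other scalings. Cell cycle genes were slightly lower in their medians, -0.18 over 18 mitosis genes and -0.25 over 18 DNA replication genes. Of these, 3 mitosis genes (16.7%) and 4 replication genes (22.2%) were called, all lower, beside 18.1% of all genes. These counts followed the scaling of the arrays, with 10, 7 and 6 mitosis genes and 11, 9 and 7 replication genes lower after the common median, quantile and cyclic loess scalings, and they fell to 1 mitosis and 1 replication gene without E10.5 replicate 3 or without E12.5 replicate 1.

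The stage difference was also measured at 0 h and at 3 h, with group means from arrays other than those at 1 h. The 3 comparisons share the pooled spread of each gene, so their calls are not independent tests. At 0 h 4023 genes (27.1%) were called, 2925 (19.7%) higher and 1098 (7.39%) lower. At 3 h 4270 (28.7%) were called, 2636 (17.7%) higher and 1634 (11%) lower. Of the 2694 genes called at 1 h, 1892 were called in the same direction at 0 h, 1703 at 3 h and 1264 at both. The leading genes of the matrix were among these, with differences of 5.24 at 0 h and 5.41 at 3 h for *Ogn* beside 5.16 at 1 h. *Shh* differed by -3.03, -2.74 and -1.29 at 0, 1 and 3 h.

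Whether the stage difference at 1 h departed from that at 0 h was tested gene by gene, and 80 genes (0.538%) passed, 22 (0.148%) toward E12.5 and 58 (0.39%) toward E10.5. The placenta and decidua markers averaged 4.26, 7.25 and 7.0 in the fresh E10.5 arrays and 3.03 to 3.55 in the fresh E12.5 arrays, against 2.99 to 3.30 after 1 h, and their part in the differences from 0 h was not tested. The count of 80 was 301 without E10.5 0 h replicate 1, the fresh E10.5 array lowest in those markers, and 34 to 70 without any one other array of the comparison. *Aldh1a2*, which encodes the enzyme that makes most of the limb's retinoic acid, read 7.39, 6.65 and 5.78 at E10.5 and 11.38, 11.34 and 10.84 at E12.5 when fresh. After 1 h it read 10.93, 10.53 and 10.61 against 10.72, 11.13 and 10.90, so the stages overlapped. The stage difference of 4.58 became 0.23, a change of -4.35 ± 0.42 (adjusted p = 0.000127).

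A change of the same kind was seen in *Tnc*, for the matrix protein tenascin C. Fresh E10.5 FBs had 6.53, 6.25 and 6.13 against 10.19, 9.90 and 10.43 at E12.5, and after 1 h E10.5 had 9.83, 10.38 and 9.35 against 10.37, 10.78 and 10.68 (change -3.11 ± 0.37, adjusted p = 0.000732). *Acta2*, for smooth muscle actin, went from 8.82, 8.66 and 8.21 to 11.64, 11.07 and 10.86 at E10.5 while E12.5 lay at 11.64 to 12.48 at both times (change -2.07 ± 0.31, adjusted p = 0.00341). *Gdf10*, for a TGF-beta family ligand (-2.22 ± 0.34), and *Ndnf*, for a secreted neuron-derived factor (-2.68 ± 0.41), were also higher at E12.5 when fresh and did not pass the test after 1 h. In these genes the mean at E10.5 changed by more than the mean at E12.5.

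A second group reversed its order. *Foxc2*, a forkhead gene of mesenchyme, was higher at E12.5 when fresh (1.12 ± 0.28) and lower after 1 h, at 8.54, 8.69 and 8.63 against 7.33, 7.13 and 6.24 (-1.72 ± 0.28, change -2.84 ± 0.40, adjusted p = 0.00186). *Jun*, an immediate early gene, was higher at E12.5 when fresh (1.18 ± 0.16) and read 10.61, 10.37 and 10.37 against 9.75, 9.92 and 9.84 after 1 h (-0.61 ± 0.16). The call of *Jun* at 1 h was lost without E10.5 replicate 1 (adjusted p = 0.0539) or E12.5 replicate 1 (adjusted p = 0.0557), whereas the call of its change held (-1.80 ± 0.23, adjusted p = 0.000878).

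In other genes the stage difference moved toward E12.5 between 0 h and 1 h. *Thy1*, a cell surface gene of mesenchyme and neurons, lay between 5.70 and 5.90 in all fresh arrays of both stages, and after 1 h at 5.20, 5.09 and 5.02 against 7.05, 6.43 and 6.70 (change 1.66 ± 0.22, adjusted p = 0.00146). *Cemip*, for a protein that degrades hyaluronan, changed by 2.39 ± 0.34 (adjusted p = 0.00263) and *Adh1*, for a retinol-oxidizing enzyme, by 2.14 ± 0.36 (adjusted p = 0.0108). Both reversed their order. Their stage differences were -0.85 (adjusted p = 0.0146) and -0.72 (adjusted p = 0.0475) when fresh, where the *Adh1* values overlapped, and 1.54 and 1.42 after 1 h. *A2m*, for the protease inhibitor alpha-2-macroglobulin, read 7.02, 11.46 and 11.22 at E10.5 when fresh, with the same 2 arrays high as for the decidua list, and 5.06, 5.09 and 5.03 against 9.69, 9.36 and 8.85 after 1 h (change 6.96 ± 1.16, adjusted p = 0.00901). Its stage difference reversed too, from -2.72 ± 0.82 at 0 h (adjusted p = 0.0198) to 4.24 ± 0.82 at 1 h (adjusted p = 0.00135).

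Against 3 h, 80 genes (0.538%) passed, 56 (0.377%) toward E12.5 and 24 (0.162%) toward E10.5, but 0 did without E12.5 1 h replicate 1 or 2 or without E12.5 3 h replicate 2 or 3, and 11 to 64 did without any one of the others. The limma test found 2373 genes at an unadjusted p under 0.05. *Prdx4*, for a peroxiredoxin of the secretory pathway, gave 10.60, 11.10 and 10.64 at E12.5 after 1 h and 9.84, 9.53 and 9.40 after 3 h, with E10.5 at 10.59 to 10.96 at both times (change 1.31 ± 0.20, adjusted p = 0.0227). That call was lost with any of those 4 arrays left out (adjusted p of 0.0647 to 0.0896).

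**Figure D4:**
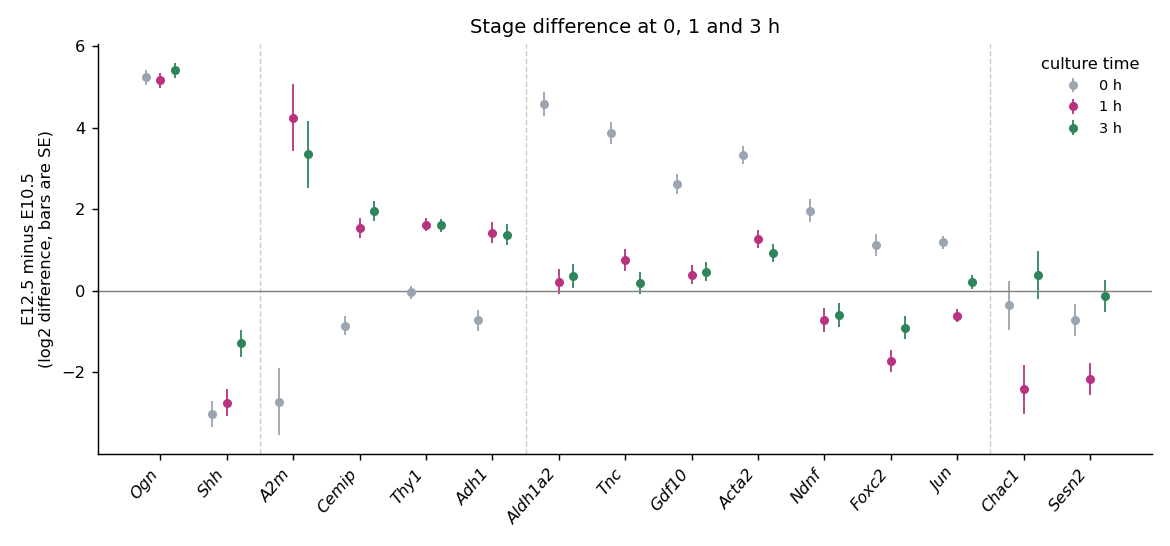
Stage difference, E12.5 minus E10.5 on the log2 scale (vertical axis), of 15 genes (horizontal axis) at 0, 1 and 3 h of culture, with bars for the SE and 3 arrays per group. *Ogn* lies near 5 at all times, *Aldh1a2* goes from 4.58 at 0 h to 0.23 at 1 h, and *Chac1* lies at -0.35, -2.42 and 0.39.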

How the data were processed

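RNA from FBs of 21 samples was hybridized to Affymetrix Mouse Exon 1.0 ST arrays. The authors summarized the arrays to gene level by RMA in Affymetrix Expression Console, and the deposited values are on the log2 scale. The version of Expression Console, the genome build and pooling of embryos are not given in the sources used here. Of 23332 features, 14996 carried a single gene, 1019 several and 7317 none, and gene names came from the platform annotation, 14941 of them matched by gene identifier to the reference annotation. For each of the 14860 genes the feature with the highest mean was kept, and features of 26 of the 135 genes with more than 1 feature correlated negatively. A mean per group was fitted over the 7 groups and 21 arrays with limma 3.58.1 in R 4.3.3 (eBayes, 14 residual degrees of freedom), with Benjamini-Hochberg adjustment over all genes. The stage difference at 1 h was tested, and in the same fit its change from 0 h and from 3 h. An exact permutation of 3 against 3 arrays cannot go below p = 0.1. The number of arrays limits the precision, with a median SD between replicates of 0.19. The fit was tested on simulated data.

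Lists are described by counts and medians without a set test. Members and lists were chosen with earlier results of these data known. Named genes were the called, non-overlapping genes with the largest rise and fall, list members with the largest differences among those called, genes named in the study's text and the leading genes of the differences from 0 h and 3 h, and uncalled list members were added after their values were seen. Alternatives were other scalings, filters, feature choices, fits and thresholds, and leaving out each array.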

Additional observations from a re-analysis of the deposited data

Results flagged for a closer look

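The stage difference after 1 h departed from that at 0 h in 80 genes and from that at 3 h in 80 genes, by limma tests of the difference itself over 14860 genes. The changes from 0 h were 6.96 for *A2m*, 2.39 for *Cemip*, 2.14 for *Adh1* and 1.66 for *Thy1* toward E12.5. Toward E10.5 they were -4.35 for *Aldh1a2*, -3.11 for *Tnc*, -2.84 for *Foxc2*, -2.68 for *Ndnf*, -2.22 for *Gdf10*, -2.07 for *Acta2* and -1.80 for *Jun*. The change from 3 h was 1.31 for *Prdx4*. Among 8336 features with no gene or several genes, which the comparison did not use, 355 were called higher and 157 lower at E12.5 after 1 h when all features were tested.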

How the results depend on the processing

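Of 2502 values of 157 named genes under the alternatives, 2469 kept their direction and side of the threshold, 33 fell short of it and 0 reversed, the 33 lying in 11 genes. With 2047 genes higher at E12.5 after 1 h, the count was 1080 after a shift to a common median, 3447 with array weights, 1275 at an adjusted p under 0.01, 561 with a difference of at least 1, and 1428 to 1899 with 1 array left out. With 647 lower, it was 2248 after the common median, 1710 after quantile normalization, 1495 after cyclic loess, 1556 with array weights, 276 at an adjusted p under 0.01, 121 with a difference of at least 1, and 358 to 625 with 1 array left out. The median over all genes was 0.04 as deposited and -0.18, -0.06 and -0.03 under these scalings in that order. For the change from 0 h, the 80 calls became 121 after quantile normalization, 142 after cyclic loess, 35 over all features, 1074 with array weights, 143 with only the groups compared, 568 at an unadjusted p under 0.01, 23 at an adjusted p under 0.01, 53 with a difference of at least 1, and 34 to 301 with 1 array left out. For the change from 3 h, the 80 became 12 after the common median, 372 after quantile normalization, 262 after cyclic loess, 236 without the lowest 30% of genes, 15 over all features, 265 with trend and robust options, 1125 with array weights, 38 with the replicate block, 18 with only the groups compared, 872 at an unadjusted p under 0.01, 0 at an adjusted p under 0.01, 11 with a difference of at least 1, and 0 to 64 with 1 array left out. The cause was not tested. The labels give same-numbered arrays only a shared number. The deviations of same-numbered E10.5 and E12.5 arrays at 1 h correlated at 0.109, -0.03 and -0.017. With 3 arrays per group these values cannot tell whether such arrays were handled together. With the replicate block the counts at 1 h were 2039 and 648 and the change from 0 h gave 59. The calls of *Hoxb9* (adjusted p = 0.0782), *Nefl* (0.112) and *Slit1* (0.0766) were lost with only the 2 groups in the fit. No depth is defined for array intensities.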

Other observations

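Pericyte markers went both ways, in 6 measured genes with 2 higher and 1 lower. *Kcnj8*, which encodes a potassium channel subunit of pericytes, read 6.24, 6.04 and 6.05 at E10.5 and 7.33, 7.22 and 7.20 at E12.5 after 1 h (1.14 ± 0.15, limma adjusted p = 4.57e-05). *Rgs5*, for a regulator of G protein signaling in pericytes, read 6.86, 6.95 and 7.0 against 5.83, 6.03 and 5.61 (-1.11 ± 0.24, limma adjusted p = 0.00329). Neither gene overlapped between the stages.

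Of 26 axon guidance genes 4 were higher and 2 lower, a called share of 23.1% beside 18.1% over all genes, and after a shift to a common median 1 was higher and 5 lower. The receptor gene *Robo2* read 9.02, 9.47 and 9.46 against 10.02, 10.22 and 10.33 (0.87 ± 0.15, limma adjusted p = 0.000488). The ligand gene *Slit1* read 9.0, 6.83 and 6.70 against 5.90, 5.71 and 5.82 (-1.70 ± 0.40, limma adjusted p = 0.00624), with E10.5 replicate 1 high as for the neuron markers, and the difference was -0.96 without it (limma adjusted p = 0.00359). *Plagl1*, an imprinted zinc finger gene, was higher by 1.14 ± 0.21 (limma adjusted p = 0.000879).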
